A study of Mus musculus with 6 samples.

Results

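The Fc gamma receptors are the cell surface receptors by which macrophages bind the constant part of IgG antibodies. The set described here held 5 genes: Fcgr1, Fcgr3, Fcgr4, Fcer1g and Fcgr2b. Its members were chosen by gene symbol in the platform annotation of the array. Of the 5 listed genes, 4 were measured, on 5 array features, among 10088 genes tested in all. Fcgr4 was not analysed here. Every member feature had a value on all 6 arrays, so that 4 of 4 measured members passed the filter on missing values.

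Total RNA came from RAW 264.7 cells, a mouse macrophage line, after 8 h without treatment or after 8 h with both 100 ng/ml lipopolysaccharide (LPS) and 100 pM of its serum carrier, LPS-binding protein. LPS forms the outer surface of Gram-negative bacteria, and its carrier passes it to CD14 on macrophages. Treated and untreated RNA shared each of 6 2-colour arrays, in 3 numbered sets with 1 array for each dye orientation. Whether the sets were separate cultures is not stated, so p-values here reflect only set-to-set spread, which may be technical. All values come from a single cell line, and both groups were that line.

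In mouse macrophages Fcgr1 encodes the high-affinity IgG receptor CD64, and Fcgr3 and Fcgr4 encode activating receptors of lower affinity. These activating receptors carry no signalling motif of their own on the chain that binds IgG and depend on the common gamma chain, encoded by Fcer1g. Its immunoreceptor tyrosine-based activation motif (ITAM) is phosphorylated by Src-family kinases and then recruits the kinase Syk. Fcgr2b encodes the inhibitory receptor, whose cytoplasmic inhibition motif (ITIM) recruits phosphatases, chiefly the lipid phosphatase SHIP-1, encoded by Inpp5d. The balance of activating and inhibitory receptors sets how strongly a macrophage answers immune complexes.

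The promoter windows of the 4 measured members are shown because 3 of these genes were higher and 1 was lower in treated cells. Each window runs from 250 bases before the annotated start to 50 bases after it, is given 5′ to 3′ on the strand of the gene, and comes from RefSeq in build GRCm38.p6. Capitals mark matches, on either strand, to TTCNNNGAA, the gamma-activated site, or to GAGGAA, the core of a PU.1 site. The third motif searched was the interferon-stimulated response element, taken as GAAA repeated after a gap of 2 bases.
Fcgr1, chr3:96293920-96294219, minus strand: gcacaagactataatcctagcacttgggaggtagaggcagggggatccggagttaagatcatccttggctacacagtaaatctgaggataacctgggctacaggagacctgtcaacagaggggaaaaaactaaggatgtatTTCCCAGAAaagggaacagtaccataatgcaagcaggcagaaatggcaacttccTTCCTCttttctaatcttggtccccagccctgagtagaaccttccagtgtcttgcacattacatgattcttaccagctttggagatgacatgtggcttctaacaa
Fcer1g, chr1:171234300-171234599, minus strand: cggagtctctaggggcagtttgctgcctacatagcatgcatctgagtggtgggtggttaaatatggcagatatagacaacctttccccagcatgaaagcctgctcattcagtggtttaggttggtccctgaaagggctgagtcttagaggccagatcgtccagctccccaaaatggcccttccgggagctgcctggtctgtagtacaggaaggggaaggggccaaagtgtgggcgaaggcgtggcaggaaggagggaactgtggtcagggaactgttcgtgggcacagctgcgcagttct
Fcgr3, chr1:171059354-171059653, minus strand: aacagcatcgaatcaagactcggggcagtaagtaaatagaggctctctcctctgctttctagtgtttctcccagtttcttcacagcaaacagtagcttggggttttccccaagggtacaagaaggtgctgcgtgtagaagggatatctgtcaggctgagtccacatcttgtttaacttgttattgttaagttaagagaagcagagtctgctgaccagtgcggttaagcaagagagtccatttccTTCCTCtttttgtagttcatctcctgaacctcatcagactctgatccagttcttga
Fcgr2b, chr1:170976022-170976321, minus strand: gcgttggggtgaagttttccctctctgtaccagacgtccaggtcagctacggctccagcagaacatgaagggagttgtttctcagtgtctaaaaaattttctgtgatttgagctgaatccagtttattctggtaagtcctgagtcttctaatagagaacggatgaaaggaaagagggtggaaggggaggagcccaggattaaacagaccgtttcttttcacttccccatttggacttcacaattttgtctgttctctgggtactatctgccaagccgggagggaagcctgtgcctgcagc

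The Fcgr1 window held 1 TTCNNNGAA match, whose first base lay 109 bases before the start, and 1 GAGGAA match on the opposite strand, beginning 55 bases before the start. The Fcgr3 window, shown for the first of 2 annotated starts, held 1 GAGGAA match, 6 bases before the start and also on the opposite strand. The windows of Fcer1g and Fcgr2b held none of the 3 motifs. No motif overlapped another in these windows. Of 32851 promoter windows of the same length, 8.3% held TTCNNNGAA, 28.3% held GAGGAA and 3.44% held the interferon-stimulated response element. These are letter matches in the reference, and binding was not measured.

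The comparison of treated with untreated cells asked how LPS changed the transcripts of each receptor chain. Fcgr1 was 4.32-fold higher in treated cells, Fcgr2b 2.45-fold higher and Fcer1g 1.46-fold higher, while Fcgr3 was 1.64-fold lower. The inhibitory receptor thus rose together with the high-affinity receptor and the common gamma chain, and the activating receptor Fcgr3 moved the opposite way. Of the 4 measured members 3 rose and 1 fell, beside 17.4% of 10088 genes that rose, 16.8% that fell and 34.2% that passed in either direction. Fcgr1 and Fcgr2b rose by more than 2-fold, as 2.86% of genes did. On 6 of 6 arrays each of the 4 kept its sign, which held for 35.2% of 9192 genes measured on all arrays. For Fcgr2b this refers to the mean of its features, as feature 15871 was lower on 1 array. At the level of features, 5 of 5 passed, beside 32.7% of 14343, with 4 rises beside 17.1% and 1 fall beside 15.6%. These calls are limma's moderated test on set means, with an adjusted p under 0.05. In fits to the 6 single arrays, feature 15871 of Fcgr2b did not pass. Values are log2 ratios of treated over untreated RNA, read as Cy5 over Cy3, with the sign changed where treated RNA was in Cy3. The numerator is not stated in the table, so this direction is likely but not settled, and with Cy3 over Cy5 each rise would be a fall. A ratio gives no level, so the abundance of 1 receptor relative to another was not measured. In these bulk samples fewer cells with a transcript and less of it per cell cannot be told apart.

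**Figure D1:**
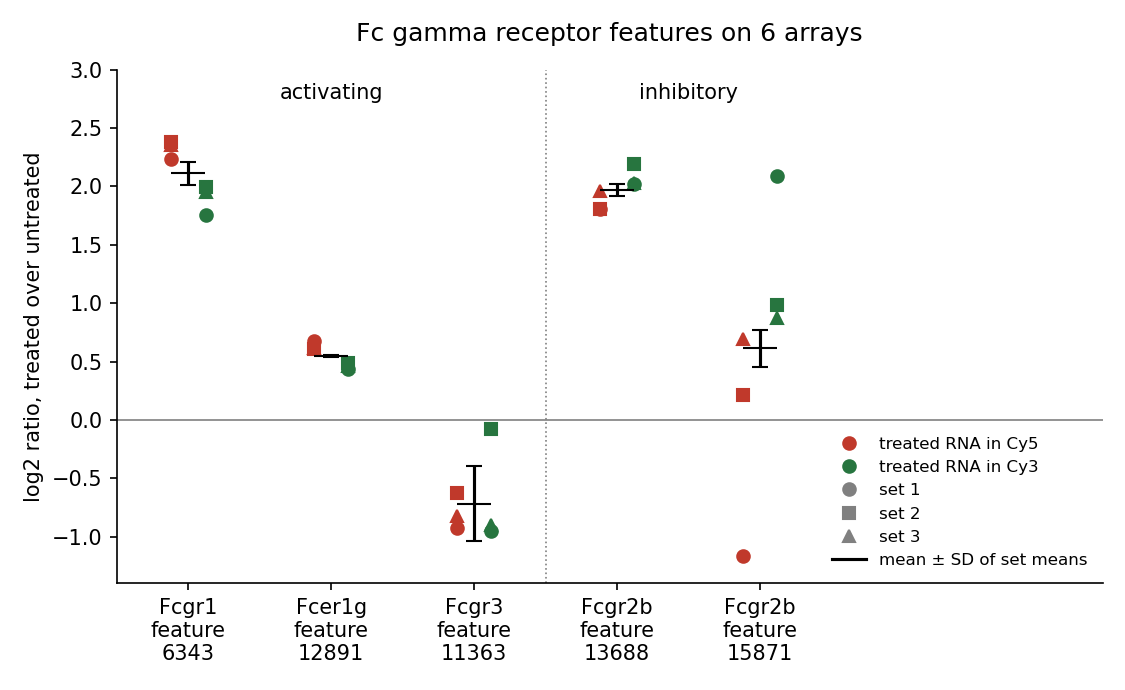
Log2 ratio of treated over untreated RNA (vertical axis) for the 5 features of the 4 measured members (horizontal axis), with 1 point per array, coloured by dye orientation and shaped by set, and bars for the mean ± SD of the 3 set means. Fcgr1 and Fcgr2b feature 13688 lie near 2 on every array, Fcer1g near 0.55, and Fcgr3 below 0 on 6 of 6 arrays, whereas Fcgr2b feature 15871 runs from -1.16 to 2.09.

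Fcgr1, the high-affinity receptor, had log2 ratios of 2.24, 2.38 and 2.36 in sets 1, 2 and 3 with treated RNA in Cy5, and of 1.76, 1.99 and 1.95 with treated RNA in Cy3. All 6 arrays were high, and the 3 Cy5 values lay above the 3 Cy3 values without overlap. Its mean was 2.11 ± 0.10 (SD, n = 3 sets), with limma's adjusted p = 5.24e-06. Both orientations differed by 0.42 for this feature (limma's adjusted p of the dye term = 0.0546), and 4.54% of 14343 features passed the threshold for that term. Among the 10088 genes it ranked at place 102 from the highest.

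Fcer1g, the common gamma chain that carries the ITAM, had values of 0.67, 0.60 and 0.62 with treated RNA in Cy5 and of 0.43, 0.49 and 0.46 with treated RNA in Cy3. The spread over sets was the smallest of the 5 features, at 0.55 ± 0.0052 (SD, n = 3 sets; limma's adjusted p = 0.000311). Within the orientations the SD of Fcer1g was larger, at 0.036 (treated RNA in Cy5) and 0.029 (treated RNA in Cy3). Deviations of the arrays of a set thus cancelled in part in the set means. As for Fcgr1, the Cy5 arrays lay above the Cy3 arrays. The change was small beside that of Fcgr1, and 6.02% of genes had a higher ratio. Against a change of 1.5-fold it did not pass (limma's adjusted p = 1).

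Fcgr3, the activating receptor CD16, had values of -0.92, -0.62 and -0.83 with treated RNA in Cy5. With treated RNA in Cy3 the values were -0.95, -0.075 and -0.90, so that set 2 stood near 0 and the other 5 arrays lay at -0.62 or below. The mean was -0.72 ± 0.32 (SD, n = 3 sets; limma's adjusted p = 0.0053), the largest spread over sets among the features. The mean was -0.90 without set 2, -0.61 without set 1 and -0.64 without set 3, with limma's adjusted p at most 0.0237. With the Cy3 orientation alone (3 arrays) it was -0.64 and the call was lost (limma's adjusted p = 0.0945). It was also lost against a change of 1.5-fold, and the adjusted p ran from 4.57e-07 to 1 over 14 alternatives. In the order of all genes Fcgr3 stood at place 158 from the lowest.

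Fcgr2b, the inhibitory receptor, was read by 2 features that differed. Feature 13688, annotated to a RefSeq transcript, had values of 1.80, 1.81 and 1.96 with treated RNA in Cy5 and of 2.02, 2.19 and 2.03 with treated RNA in Cy3. It was high on 6 of 6 arrays, with a mean of 1.97 ± 0.05 (SD, n = 3 sets; limma's adjusted p = 2.97e-06), a 3.91-fold rise. Feature 15871, annotated to a GenBank record, had values of -1.16, 0.21 and 0.69 with treated RNA in Cy5 and of 2.09, 0.98 and 0.87 with treated RNA in Cy3. Its lowest and highest arrays both belonged to set 1, where they averaged to 0.46.

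The set means of feature 15871 were close, at 0.61 ± 0.16 (SD, n = 3 sets; limma's adjusted p = 0.00118), although its arrays ranged over more than any other member feature. Within the orientations its SD was 0.96 (treated RNA in Cy5) and 0.67 (treated RNA in Cy3), against 0.087 and 0.094 for feature 13688. With the 6 arrays as separate replicates and a dye term, feature 15871 did not pass (limma's adjusted p = 0.14), nor did it with the set number as a block (0.183). The mean on the Cy5 arrays alone was -0.088. Features 13688 and 15871 differed by 1.35 ± 0.12 over the 3 sets. Fcgr2b as the mean of both had a log2 ratio of 1.29 ± 0.10 (limma's adjusted p = 3.14e-05), which lies between them, so that its size rests on the choice of feature. Feature 13688 passed in both 6-array fits and on the Cy5 arrays alone, and feature 15871 passed in none of these. On the Cy3 arrays alone both passed, at 2.08 for feature 13688 and 1.32 for feature 15871 (limma's adjusted p = 0.000798 and 0.0422). Both also passed with any 1 set left out. Fcgr2b and Fcgr3 are closely related in the sequence of their IgG-binding domains. The spot sequences were not used here, and whether a spot read the related transcript as well was not tested.

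**Figure D2:**
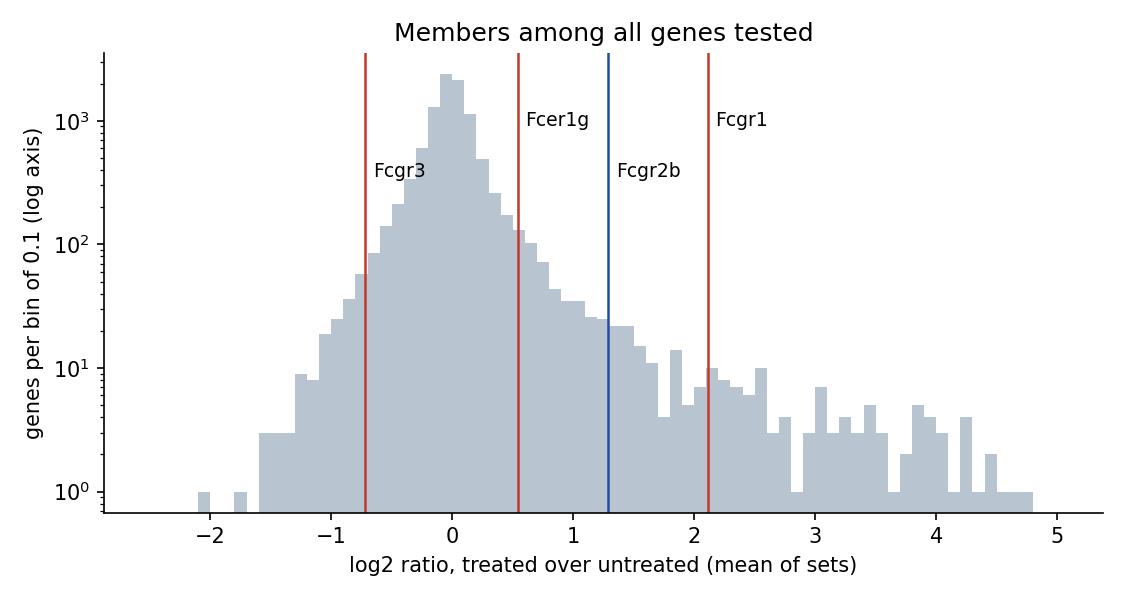
Number of genes (vertical log axis) by log2 ratio of treated over untreated RNA (horizontal axis, bins of 0.1) for the 10088 genes tested, with red lines at the activating chains and a blue line at Fcgr2b. Fcgr1 at 2.11 and Fcgr2b at 1.29 lie in the upper tail, Fcer1g at 0.55 on its shoulder, and Fcgr3 at -0.72 in the lower tail.

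Activating and inhibitory chains were then compared within arrays, as each activating chain's log2 ratio minus that of Fcgr2b. The 3 activating chains did not stand on 1 side of the inhibitory receptor. Relative to the mean of both Fcgr2b features, Fcgr1 rose more, by 0.82 ± 0.06 (SD, n = 3 sets), while Fcer1g differed by -0.74 ± 0.11 and Fcgr3 by -2.01 ± 0.32. In fold terms the ratio of Fcgr3 to Fcgr2b transcripts was 4.02 times lower in treated than in untreated cells, and that of Fcgr1 to Fcgr2b was 1.77 times higher. Intervals of 95% from both genes' own errors ran from 0.63 to 1.01 for Fcgr1, from -0.92 to -0.57 for Fcer1g and from -2.33 to -1.69 for Fcgr3. Such intervals, here and below, take the genes as independent, although both were read on the same arrays. They rest on the spread between set means, so spread between single arrays that cancels within a set does not enter, and they may be too narrow. Over single arrays the difference ran from -0.30 to 1.92 for Fcgr1 and from -1.62 to 0.35 for Fcer1g.

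Limma fitted to all genes minus Fcgr2b called these 3 differences, but it called 99.1% of 10087 genes, 1.62% higher and 97.5% lower. With feature 13688 alone in place of the mean the shares were 0.942% higher and 98.7% lower, and with feature 15871 alone 3.48% and 91.2%. In that fit Fcgr2b's own deviation enters every gene, the prior degrees of freedom were estimated as infinite, and the p-values are therefore far too small to print, so that no call of that fit is read here. The exact two-sided sign-flip permutation test over 3 sets gave p = 0.25 for each of the 3 differences, which is the smallest this design allows. Fcgr3 was below Fcgr2b on 6 of 6 arrays, Fcer1g on 5 and Fcgr1 on 1. The Cy5 and Cy3 arrays taken apart gave means of -0.25 and -1.24 for Fcer1g, 1.44 and 0.20 for Fcgr1, and -1.68 and -2.34 for Fcgr3.

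The choice of Fcgr2b feature, tried after the values were seen, decided 2 of the 3 differences. Against feature 13688, Fcgr1 differed by 0.14 ± 0.05, with an interval from both genes' own errors of -0.039 to 0.32. It lay above that feature on the 3 Cy5 arrays (0.43, 0.57 and 0.40) and below it on the 3 Cy3 arrays (-0.26, -0.20 and -0.084), so no order of these 2 receptors was settled. Against feature 15871, Fcgr1 was 1.5 ± 0.11 higher. Fcer1g differed by -1.42 ± 0.05 from feature 13688 and by -0.067 ± 0.16 from feature 15871, with an interval of -0.27 to 0.14. Fcgr3 was lower than Fcgr2b by either feature, with differences of -2.69 ± 0.29 and -1.33 ± 0.36, on 6 and on 5 of 6 arrays.

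**Figure D3:**
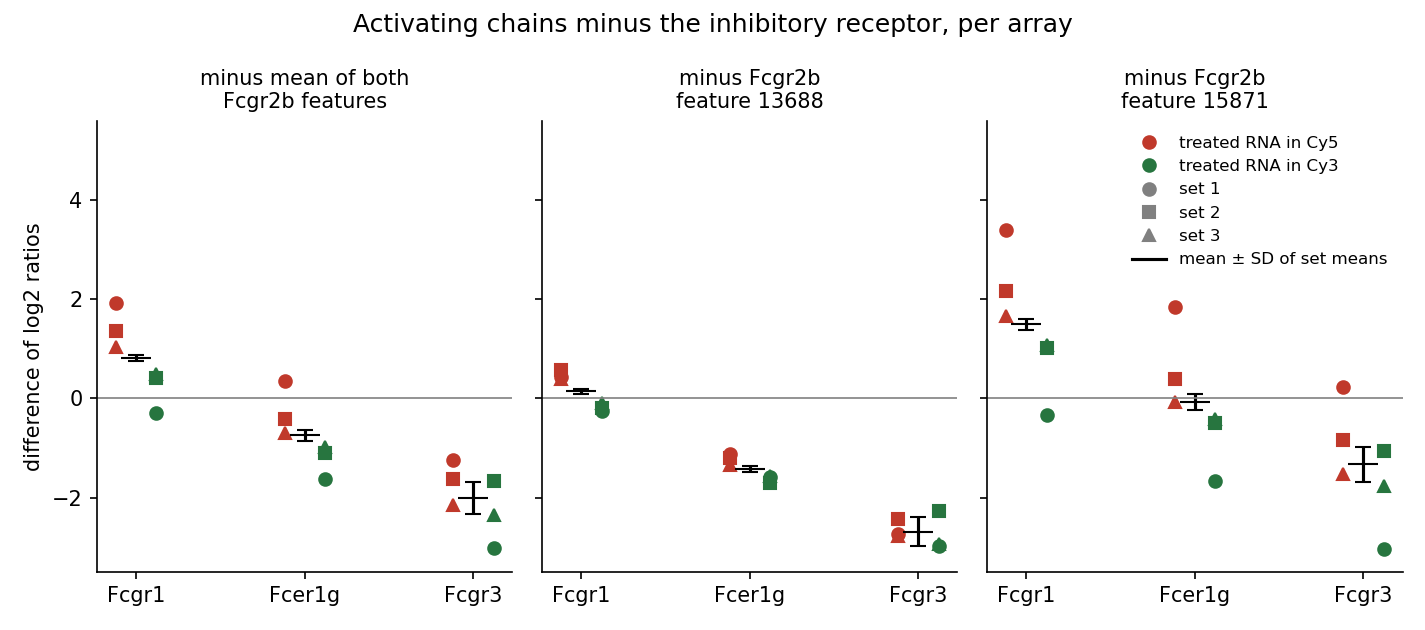
Difference between the log2 ratio of each activating chain (horizontal axis) and that of Fcgr2b (vertical axis, log2 units), with 1 point per array, coloured by dye orientation and shaped by set, and bars for the mean ± SD of the 3 set means. The panels take Fcgr2b as the mean of its features, as feature 13688 and as feature 15871: Fcgr3 averages -2.01, -2.69 and -1.33, while Fcgr1 averages 0.82, 0.14 and 1.5.

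Among the activating chains themselves, Fcgr1 rose more than its partner chain Fcer1g by 1.56 ± 0.11 (SD, n = 3 sets; interval from both genes' own errors 1.39 to 1.74) and was above it on 6 of 6 arrays. Fcer1g exceeded Fcgr3 by 1.26 ± 0.32 (interval 0.96 to 1.57), and Fcgr1 exceeded Fcgr3 by 2.83 ± 0.26 (interval 2.51 to 3.15), both on 6 of 6 arrays. As with Fcgr2b, the like fits of all genes minus Fcer1g or Fcgr3 called 96.2% and 90.2% of genes, and their p-values are not printed. The order of the changes was therefore Fcgr1, Fcer1g and Fcgr3, with Fcgr2b between Fcgr1 and Fcer1g in the mean of its features and not separated from Fcgr1 by feature 13688 or from Fcer1g by feature 15871.

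Other receptors for immunoglobulins were compared as a list of 14 genes, of which 8 were tested. This list and those below were chosen with earlier results of these data known. Their shares beside those of all genes are therefore descriptive, and an excess may come from the choice of genes. In this list 2 rose (25%) and 1 fell (12.5%), beside 17.4% and 16.8% of all genes, or 2 fell without set 1. Its median log2 ratio was 0.014, against -0.0075 over all genes. Trim21, the cytosolic receptor for antibody-coated particles, rose by 2.22 ± 0.06 (SD, n = 3 sets), and B2m, the light chain of the neonatal Fc receptor and of MHC class I, by 0.96 ± 0.10. Fcgrt, the heavy chain of the neonatal Fc receptor, which protects IgG from lysosomal breakdown, fell by 0.29 ± 0.03 on the log2 scale and was lower on 6 of 6 arrays. Its call was lost in the test against 1.5-fold and on the Cy5 arrays alone. The IgE receptor chains that share Fcer1g in mast cells, Fcer1a and Ms4a2, had ratios of -0.0058 and -0.15 (limma's adjusted p = 0.945 and 0.123).

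Receptors and adaptors, most of them of ITAM signalling, formed a list of 23 genes, with 17 tested, of which 6 rose and 1 fell at a median of 0.10. Thus 35.3% rose and 5.88% fell, beside 17.4% and 16.8% of all genes. The C-type lectins Clec4e (Mincle) and Clec4d, receptors for mycobacterial glycolipid that use the common gamma chain, rose by 1.41 ± 0.25 and 1.30 ± 0.05. Clec7a, the beta-glucan receptor dectin-1, rose by 0.89 ± 0.26 and is counted in the list, although it carries an ITAM-like motif in its own tail. Trem2, which signals through the adaptor DAP12, fell by 0.85 ± 0.07. Tyrobp, the gene of DAP12, stood at -0.075 ± 0.07 (limma's adjusted p = 0.296), beside 0.55 for Fcer1g.

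A list of inhibitory receptors, most of which carry ITIMs of their own as Fcgr2b does, showed 4 rises and 3 falls among 15 tested of 22 listed, at a median of 0.093. The largest rise was that of Lilrb4a, an inhibitory receptor of myeloid cells, at 2.92 ± 0.13. Pdcd1, the gene of PD-1, averaged 1.11 ± 0.08 over 2 features with means of 0.11 and 2.12, and Cd72 rose by 0.53 ± 0.10. Cd33 fell by 1.14 ± 0.13 and Sirpa, which restrains phagocytosis on contact with CD47, by 0.70 ± 0.03. Clec4a2 stood lower by -0.33 ± 0.15, and its call was lost in 3 of 14 alternatives. Without set 2, 7 genes of this list rose. The shares of 26.7% that rose and 20% that fell stood beside 17.4% and 16.8% over all genes.

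Kinases and adaptors downstream of the ITAM had 20 tested of 27 listed, with 7 rises and 1 fall at a median of 0.0047, and 3 rises without set 3. The shares that rose and fell, 35% and 5%, stood beside 17.4% and 16.8% over all genes. Lcp2, the adaptor SLP-76, rose by 1.35 ± 0.16 and Sh3bp2, an adaptor that binds Syk, by 0.73 ± 0.07. Syk, the kinase that docks on the phosphorylated Fcer1g chain, had values from -0.34 to 0.19, on both sides of 0, and a mean of -0.10 ± 0.15 (limma's adjusted p = 0.282). Shc1 fell by 0.25 ± 0.06. Prkce, a protein kinase C, averaged 0.36 ± 0.22 but was negative on the 3 Cy5 arrays and positive on the 3 Cy3 arrays, and its call was lost in 8 of 14 alternatives.

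Phosphatases and adaptors that act behind the ITIM had 12 tested of 16 listed, of which 6 rose and 3 fell at a median of 0.11. That is 50% and 25%, beside 17.4% and 16.8% over all genes. Inpp5d, the SHIP-1 gene and main effector of Fcgr2b, had values of -0.44, -0.47 and -0.40 with treated RNA in Cy5 and of -0.50, -0.46 and -0.45 with treated RNA in Cy3. It was lower on 6 of 6 arrays, with a mean of -0.45 ± 0.02 (SD, n = 3 sets; limma's adjusted p = 0.000699), a 1.37-fold fall, and both of its features averaged -0.45. It moved opposite to Fcgr2b itself, and its call was lost against a change of 1.5-fold. In that test 0 genes of this list rose and 0 fell. Inppl1, the related phosphatase SHIP-2, rose by 0.67 ± 0.24, and Dok2, an adaptor that restrains Ras signalling, by 0.65 ± 0.03, while Sla and Csk, negative regulators of tyrosine kinase signalling, fell by 0.54 ± 0.10 and 0.30 ± 0.01. Cbl, a ubiquitin ligase for activated kinases, rose by 0.33 ± 0.06, with its call lost in 2 of 14 alternatives. Ptpn6, the gene of SHP-1, had too few measured values for a test.

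**Figure D4:**
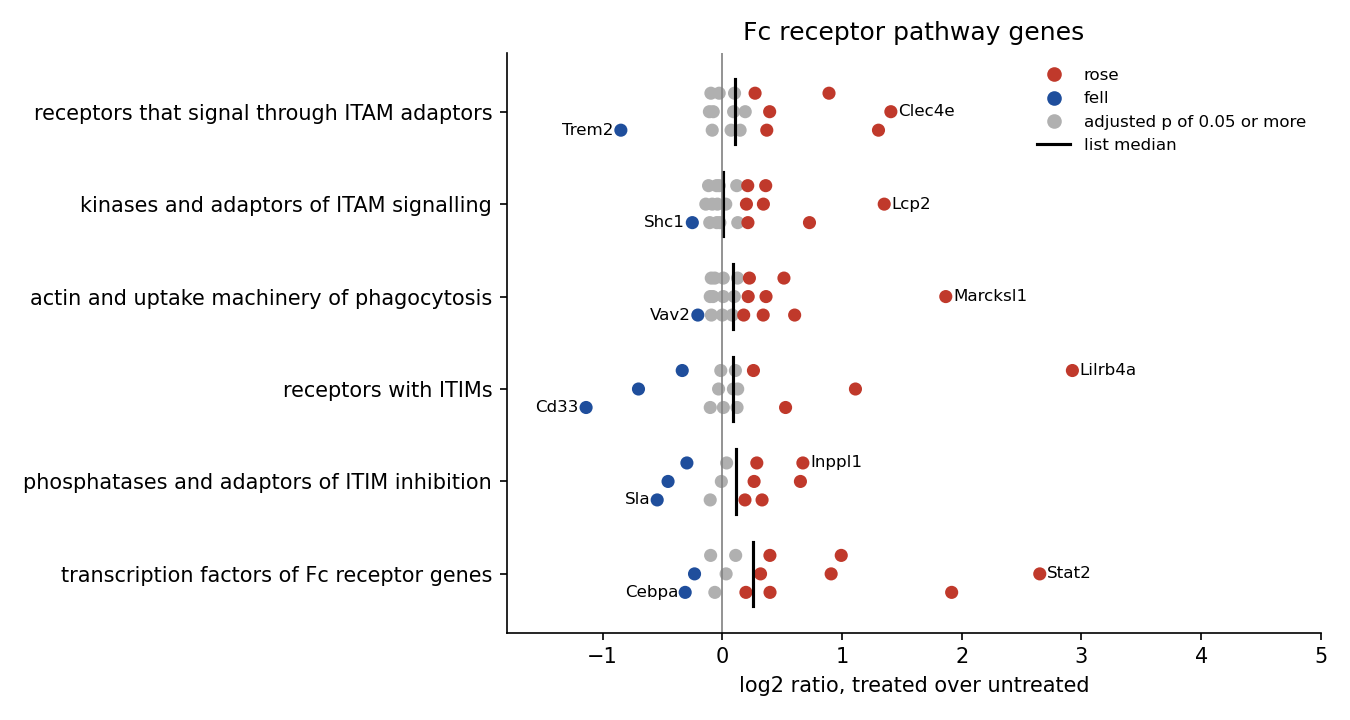
Log2 ratio of treated over untreated RNA (horizontal axis) for each tested gene of 6 Fc receptor pathway lists (rows), with genes that rose in red, genes that fell in blue, other genes in grey and the list median as a black bar. The medians lie between 0.0047 and 0.26, and the highest and lowest gene of each list are named, among them Lilrb4a at 2.92 and Cd33 at -1.14 in the ITIM receptors.

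The machinery of uptake, which remodels actin around an IgG-coated particle, had 20 tested of 30 listed, with 8 rises and 1 fall at a median of 0.092. These were 40% and 5%, beside 17.4% and 16.8% over all genes. The rises numbered 5 without set 2 and 4 without set 3, where 0 fell. Marcksl1 and Marcks, actin-binding substrates of protein kinase C, rose by 1.87 ± 0.16 and 0.60 ± 0.32, and the call of Marcks was lost in 2 of 14 alternatives. Arpc5, a subunit of the actin-nucleating Arp2/3 complex, rose by 0.52 ± 0.05 over 2 complete sets. Vav2, a guanine nucleotide exchange factor, stood at -0.20 ± 0.02 and lost its call in 5 of 14 alternatives.

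Complement receptors of phagocytes, a list of opsonin receptors and of receptors for soluble complement fragments, had 6 tested of 10 listed. Of these C3ar1, which binds the soluble fragment C3a and is not an opsonin receptor, rose by 2.73 ± 0.14, and 0 fell, at a median of -0.02. The 16.7% that rose and 0% that fell stood beside 17.4% and 16.8% over all genes. In a list of 13 immune complex and B cell genes, 2 of 9 tested rose (22.2%) and 0 fell, at a median of 0.051, beside 17.4% and 16.8% of all genes. The 2 rises were C1ra, a protease of the first complement component, at 0.73 ± 0.03, and Ighm, at 0.55 ± 0.08.

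Transcription factors that act on Fc receptor genes had 14 tested of 18 listed. Of these 8 rose (57.1%) and 2 fell (14.3%) at a median of 0.26, beside 17.4% and 16.8% of all genes. The falls numbered 1 without set 1 and 0 without set 3. Stat2, Irf1 and Irf9, factors of interferon signalling, rose by 2.65 ± 0.05, 1.92 ± 0.19 and 0.99 ± 0.20. Irf8, a myeloid factor that partners PU.1, rose by 0.91 ± 0.08, and Spi1, the gene of PU.1, by 0.40 ± 0.07 (limma's adjusted p = 0.00173), both on 6 of 6 arrays. Cebpa stood at -0.31 ± 0.14 and Klf4 at -0.23 ± 0.15, with calls lost in 3 and 6 of 14 alternatives.

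In the reference annotation Fcgr2b, Fcgr4, Fcgr3 and, after several other genes, Fcer1g lie in that order on chromosome 1, whereas Fcgr1 lies on chromosome 3. Of the 13 nearest measured genes around the chromosome 1 members, 3 rose and 2 fell, beside 17.4% and 16.8% of all genes. Their ratios ran from -0.41 to 0.48. The range of these neighbours lay inside that of the members, -0.72 to 1.29. Cfap126, next to Fcgr3, had -0.41 ± 0.29 and lost its call in 5 of 14 alternatives, and Usp21, beyond Fcer1g, rose by 0.48 ± 0.07. Uhmk1 and B4galt3 rose by 0.34 ± 0.04 and 0.23 ± 0.01, and Ppox fell by 0.30 ± 0.10. Uhmk1 and Ppox lost their calls in 2 of 14 alternatives each, and B4galt3 in 3, among them the Cy3 arrays alone for all of these and, for B4galt3, the fit without set 3. Sdhc and Apoa2, which lie between Fcgr3 and Fcer1g, stood at -0.024 and 0.0088 (limma's adjusted p = 0.718 and 0.929). Around Fcgr1, 1 of 8 measured genes rose and 3 fell, beside the same shares of all genes. The histone gene H3c14 rose by 0.76 ± 0.07, while Bola1 fell by 0.77 ± 0.11, H4c14 by 0.42 ± 0.08 and Pias3, which encodes an inhibitor of STAT signalling, by 0.32 ± 0.08. The calls of H4c14 and Pias3 were lost in 2 of 14 alternatives each.

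**Figure D5:**
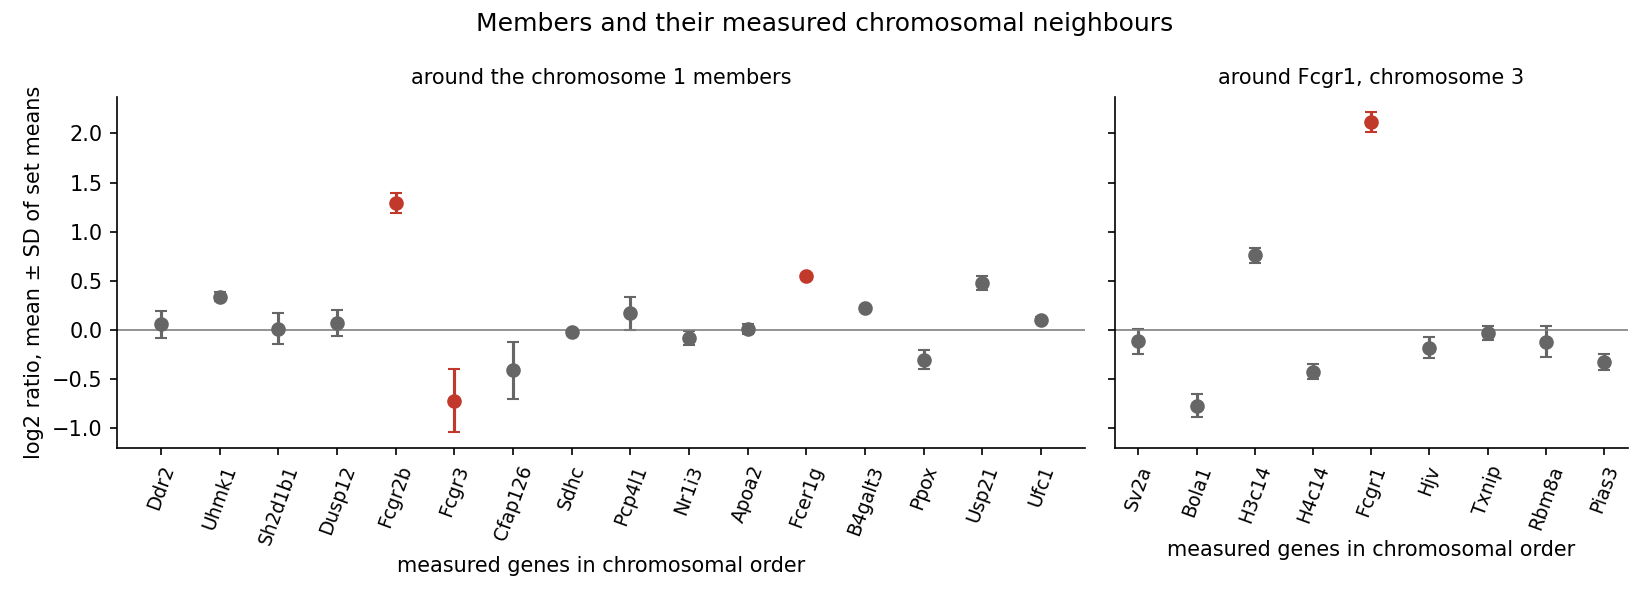
Mean ± SD over sets of the log2 ratio of treated over untreated RNA (vertical axis) for the members (red) and the nearest measured genes (grey) in chromosomal order (horizontal axis, not to scale) on chromosome 1 and around Fcgr1 on chromosome 3. Fcgr2b at 1.29 and Fcgr3 at -0.72 lie outside the range of the chromosome 1 neighbours, -0.41 to 0.48, and Fcgr1 at 2.11 above its own neighbours, which reach 0.76.

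The genes whose values over the 6 arrays were nearest to each member were found among 9192 genes measured on all arrays, by the root mean square difference in log2 units. All arrays compare the same 2 conditions, so this measure mostly ranks genes by the size of their change. Nearest to Fcgr1 were Pml, at 0.095, Trim21, at 0.13, and Glrx, at 0.16, with mean ratios of 2.13, 2.22 and 2.15. Nearest to Fcer1g were Fdft1, Kif3c and Ctss, at differences of 0.052, 0.055 and 0.058. Rnf227, Tlr4 and Jag2 were nearest to Fcgr3, at 0.093, 0.097 and 0.14. Their values on the Cy3 array of set 2, at -0.11, -0.18 and -0.35, were the nearest to 0 of their 6 arrays, as was that of Fcgr3. Because they were chosen for likeness to Fcgr3 over these same arrays, this shared feature is partly built into the choice. Fcgr2b, taken as the mean of its 2 features, had no comparably close gene, and its nearest were Pdcd1, Apobec3 and Mageb2, at 0.40, 0.42 and 0.43. That mean carries the spread of feature 15871, from -1.16 to 2.09 over the arrays. Feature 13688 alone, at 1.80 to 2.19, was not compared in this way.

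Markers of cell types were examined for changes with treatment, since ratios give no level and cannot show that a marker was absent. Among 10 tested macrophage markers 4 rose (40%) and 2 fell (20%), beside 17.4% and 16.8% of all genes. Mpeg1, Msr1, Lyz2 and Adgre1 rose by 1.51, 1.31, 1.21 and 1.16, and Cd33 and Csf1r stood at -1.14 and -0.19. Of 6 B cell markers, a lineage in which Fcgr2b is the main Fc gamma receptor, 0 passed in limma's test, with ratios from -0.11 to 0.12. The counts were 0 of 6 for T cells, 1 fall among 6 natural killer cell markers (Gzma, -0.34), 1 rise among 6 mast cell markers (Hdc, 2.96), 1 among 7 neutrophil markers (Elane, 0.49) and 1 among 5 dendritic cell markers (Cd83, 1.34).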

How the data were processed

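The authors deposited 1 log2 ratio per feature and array for 16281 features on 6 arrays. The log2 scale was read from the values, whose maximum of 6.64 is the log2 of 100. How the spots were scanned, background-corrected and dye-normalized is not given in the sources used here. No intensities were used, so the number of arrays limits the precision. The cell line is written RAW 264.7 at 42 mentions in the labels and RAW 264.4 at 6. Gene symbols came from the platform annotation, for 13738 features with 1 symbol, and promoters and gene order came from RefSeq (GRCm38.p6), whose coordinates are printed only for the sequences.

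Arrays of opposite dye orientation correlated at -0.8 to -0.43 as deposited, and the sign was changed on Cy3 arrays. Values of exactly 0, at 8.16% to 13.9% per array, were treated as not measured. A set mean required both arrays of the set. A gene was the mean of its features measured on all 6 arrays or, with none, its most complete feature, and at least 2 set means were needed. Set means were tested against 0 with lmFit and eBayes (limma 3.58.1, R 4.3.3), adjusted by Benjamini-Hochberg over all 10088 genes or 14343 features, at 0.05. The procedure was tested on simulated data. Feature-level p-values come from the feature fit.

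The members and gene lists were chosen with earlier results of these data known. Named genes were all members, up to 3 rises and 3 falls per list, pathway genes named in any case (not all are reported here), the 4 nearest measured genes on each side of a member and the 3 genes nearest to each member in value. Clone and predicted-gene names were passed over. The fit of genes minus Fcgr2b was kept as planned and its p-values are not printed, for the reason given with it. Alternatives covered zeros, replicate unit and block, centring, scaling, dye orientation, choice of feature, left-out sets and a 1.5-fold null.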

Additional observations from a re-analysis of the deposited data

Results flagged for a closer look

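Among 70 named genes, 6 had 1 of 6 arrays that stood apart from the rest, with a gap to the nearest array above 0.625 of the range. Chance alone flags about 1 in 20 such groups. None of the 5 member features did, although Fcgr3 came close, at a gap of 0.622 of its range for the Cy3 array of set 2. Tlr4 stood at -0.18 and Rnf227 at -0.11 on that same array, nearer to 0 than on their other arrays, and both genes were named for their likeness to Fcgr3. Clec4d at 1.41 and Sh3bp2 at 0.89 had their highest values on the Cy3 array of set 2 as well, and Dok2 at 0.76 on the Cy3 array of set 3. Ddr2, a neighbour of the chromosome 1 members, had -0.38 on the Cy3 array of set 1.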

How the results depend on the processing

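Fcgr1 and Fcgr2b kept their direction and their call in all 14 and 16 alternatives tried for them, with ranges of 1.90 to 2.32 and 0.61 to 1.97. Fcgr3 minus Fcgr2b ran from -2.69 to -1.33 over its 16 alternatives, and calls of the fits minus Fcgr2b are not read as stability. The test against 1.5-fold left 426 genes (342 higher, 84 lower) and 649 features, and ended the calls of Fcgr3 at -0.72 and Fcer1g at 0.55. It was the only alternative that ended the calls of Inpp5d, Inppl1, Dok2, Sla, Csk, Cd72, Sirpa, Clec7a, Sh3bp2, Shc1 and Spi1. The same held for Arpc5, C1ra, Ighm, Bola1, H3c14 and Usp21. Cy3 arrays alone gave Fcgr3 -0.64 and Cy5 arrays alone gave Fcgr2b feature 15871 -0.088, both without a call. Fcgr1 minus Fcgr2b was 0.20 on Cy3 arrays alone and Fcer1g minus Fcgr2b -0.25 on Cy5 arrays alone. Fcer1g minus feature 15871 was -0.067, an alternative chosen after seeing the data.

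Leaving out 1 set gave 2042 to 3383 genes (1097 to 1685 higher, 945 to 1716 lower) and 2956 to 4822 features, against 3449 genes (1751 and 1698) and 4690 features, with the lowest counts without set 3. The members ran from 2.07 to 2.17 (Fcgr1), 1.24 to 1.34 (Fcgr2b), -0.90 to -0.61 (Fcgr3) and 0.54 to 0.55 (Fcer1g). Their differences from Fcgr2b ran from 0.79 to 0.85 (Fcgr1), -2.19 to -1.89 (Fcgr3) and -0.80 to -0.69 (Fcer1g). Of 252 list counts under alternatives, 213 stayed within 1.5 times and 39 moved.

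In the ratios as deposited, before the sign change, same-numbered arrays deviated together at r = 0.256, 0.212 and 0.0999 over features. On the treated over untreated scale these r have the opposite sign, so deviations shared in this way cancel in part in a set mean. The Cy3 array of set 3 correlated better with the Cy5 array of set 2 (0.112), so the check did not establish the numbers as pairing. The main test nevertheless averages the 2 arrays of a number, as planned for a dye swap, and for feature 15871 the spread between sets is far below that between arrays. With the set number as a replicate block, 3673 genes and 5042 features were called, against 3788 and 5218 for the 6 arrays without it. Neither of these fits changed a member gene's call, and both ended that of feature 15871 (limma's adjusted p = 0.183 and 0.14).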
